A study of Mus musculus with 5 samples.

Results

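Transforming growth factor beta (TGF-beta) genes were examined in mouse aorta across 10 genes: the ligands Tgfb1, Tgfb2 and Tgfb3, the receptors Tgfbr1, Tgfbr2 and Tgfbr3, the latent TGF-beta binding proteins Ltbp1 and Ltbp2, the TGF-beta induced matrix protein gene Tgfbi and the inhibitory Smad gene Smad7. They were chosen by symbol, as every probe set of the deposited table whose annotation gave 1 gene symbol among these 10. They were read by 19 of 22626 probe sets and were 10 of 12393 named genes. The series compared male mice homozygous for the db allele of Lepr, the leptin receptor gene (db/db, 3 arrays, replicates 1, 2 and 3) with male heterozygotes of the same colony (db/+, 2 arrays, replicates 2 and 3), all of strain BKS.Cg-m +/+ Leprdb/J. Mice were 16 to 20 weeks old and fed regular chow. Each array held the pooled RNA of 6 aortas from which adventitia and periaortic fat had been stripped, so 1 array is 1 pool, the spread between arrays is that between pools, and db/+ replicate 1 was not analysed here. The mutation is carried in the whole body, and db/+ controls carry 1 copy of it. Whole vessel RNA mixes cell types, so fewer cells of a type and less RNA per cell cannot be told apart.

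TGF-beta ligands are secreted in a latent complex in which the cleaved propeptide stays wrapped around the growth factor, and the binding proteins anchor that complex to fibrillin-rich matrix. Once released, a ligand brings together the type II receptor (Tgfbr2) and the type I receptor (Tgfbr1), often with betaglycan (Tgfbr3) as co-receptor, and the type I receptor phosphorylates Smad proteins that enter the nucleus with Smad4. In the arterial wall the pathway is known for its part in smooth muscle differentiation and in the making of collagen and elastic fibres.

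Signals are MAS5 intensities per probe set on a linear scale, and means are given ± SD (n = 3 in db/db, n = 2 in db/+). A log2 change or log2 difference is db/db minus db/+ on the log2(signal + 16) scale, which understates changes of low signals, with the standard error (SE) from limma. Probe sets were tested if their mean signal lay above the 40th percentile (40.6), and 18 of the 19 were, with all 10 genes represented. The value dropped was a Tgfbr2 probe set (1422019_at) with signals from 1.2 to 17.6. Signals of different probe sets were not compared with each other, since each binds with its own strength.

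No TGF-beta gene passed the test at a limma adjusted p under 0.05. The count was 0 of 18 probe sets, where 0.0958% of the 13574 probe sets tested passed, all of them lower in db/db (13 probe sets, and 1 without db/+ replicate 2 or without db/+ replicate 3). Without adjustment, 3 probe sets were higher at p under 0.05, all of Tgfbi, and 1 was lower, that of Ltbp2, against 3.97% higher and 4.19% lower over all probe sets. Without db/+ replicate 3 the lower count was 0, and without db/db replicate 2 or 3 it was 2. The genotypes were fully separated at 5 of the 18 probe sets in the upward direction (4 of Tgfbi and that of Tgfb3) and at 2 in the downward direction (Ltbp2 and the brightest of Tgfbr1), where the shares over all probe sets were 13.0% and 12.0%. Probe sets of 1 gene are not independent of each other. Counted by the brightest probe set of each gene, 2 of 10 genes were higher and 2 lower without overlap, against 13.6% and 12.0% of 8261 named genes, so the genes stood near the background. The median log2 change was 0.013 over the 18 probe sets and 0.016 over all.

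**Figure D1:**
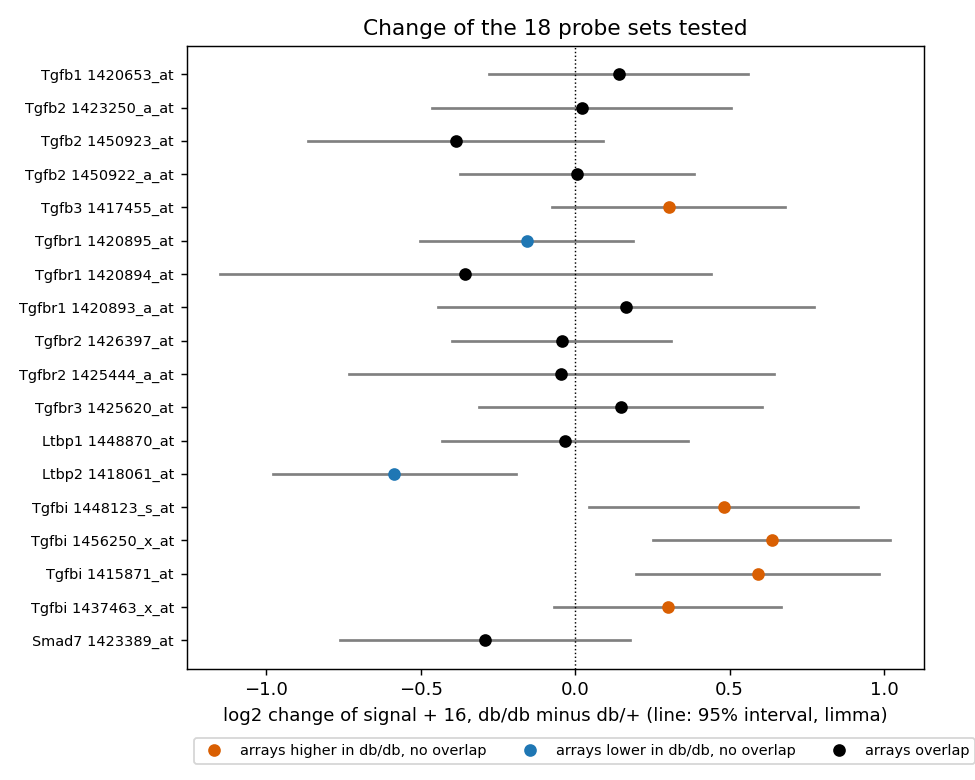
Log2 change (db/db minus db/+) of the 18 probe sets tested, with lines for limma's 95% interval and colours for probe sets whose arrays did not overlap between genotypes. The intervals of 3 Tgfbi probe sets lie above 0 and that of Ltbp2 below 0, and none of the 18 passed after adjustment.

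The promoters of Tgfbi and Ltbp2 are shown because these were the genes with an unadjusted p under 0.05. The table of RefSeq promoters used here (build GRCm38.p6) matched 7 of the 10 genes, in 9 windows; Smad7, Tgfb3 and Tgfbr3 were not matched. The 250 bases before the start are printed 5′ to 3′ on the gene's strand, with the core of the Smad binding element, CAGAC, and the GC box GGGCGG in capitals on either strand (GTCTG and CCGCCC are the same motifs read from the other strand). The Tgfbi window is chr13:56609336-56609585, plus strand, and the Ltbp2 window is chr12:84876492-84876741, minus strand.
Tgfbi: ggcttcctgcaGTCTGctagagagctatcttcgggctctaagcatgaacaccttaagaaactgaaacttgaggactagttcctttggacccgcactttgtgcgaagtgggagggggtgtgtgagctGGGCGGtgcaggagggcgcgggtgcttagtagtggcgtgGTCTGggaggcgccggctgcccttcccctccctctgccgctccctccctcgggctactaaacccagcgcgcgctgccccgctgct
Ltbp2: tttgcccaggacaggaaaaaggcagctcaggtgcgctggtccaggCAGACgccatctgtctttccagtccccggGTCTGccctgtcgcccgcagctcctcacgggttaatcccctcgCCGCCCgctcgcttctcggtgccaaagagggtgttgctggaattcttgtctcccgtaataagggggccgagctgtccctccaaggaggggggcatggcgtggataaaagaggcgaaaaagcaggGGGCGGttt
Each window held 2 copies of CAGAC, and there was 1 GC box before Tgfbi and 2 before Ltbp2, with no overlap between motifs. CAGAC occurred in 7 of the 9 windows of these genes and in 42.2% of all 32851 windows of that length. GGGCGG occurred in 4 of the 9 and in 32.7% of all. These are matches of letters and show no binding.

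Tgfbi encodes a secreted matrix protein that binds collagens and integrins and was named for its induction by TGF-beta. Its 4 probe sets all had higher signals on the 3 db/db arrays than on both db/+ arrays. The probe set with the smallest p (1456250_x_at) had signals of 950.3, 1130.0 and 897.5 in db/db replicates 1, 2 and 3 and of 658.4 and 602.3 in db/+ replicates 2 and 3. Its means were 993 ± 122 and 630.4 ± 39.7, a ratio of 1.57 and a log2 difference of 0.64 (SE 0.17; limma, adjusted p = 0.31).

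The probe set 1415871_at read 966.4, 734.0 and 832.3 in db/db against 570.5 and 533.2 in db/+, a log2 difference of 0.59 (SE 0.17; limma, adjusted p = 0.37). The brightest probe set (1448123_s_at) read 1148.2, 1280.1 and 917.7 against 721.5 and 858.9, with a narrow gap between db/db replicate 3 and db/+ replicate 3 and a log2 difference of 0.48 (SE 0.19; limma, adjusted p = 0.57). The dimmest of the 4 (1437463_x_at) read 485.9, 476.0 and 410.0 against 386.8 and 349.3, a log2 difference of 0.30 (SE 0.16; limma, adjusted p = 0.70). The array with the highest signal was db/db replicate 2 at 2 of the probe sets and db/db replicate 1 at the other two, while the lowest db/db signal was that of replicate 3 at 3 of the 4. Probe sets ending in _x_at or _s_at can also read related transcripts, and 1415871_at carries no such suffix.

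Macrophages can express Tgfbi, and most of their markers had lower signals in db/db. Of the 19 tested, 18 had a negative log2 change (46.1% of all named genes). Laptm5 was higher without overlap, at 0.23, and the groups overlapped at Adgre1, Ptprc and Ms4a7. The summed signal of 21 macrophage markers on the array lay between 3695 and 4008 in db/db and between 6493 and 7551 in db/+, with 12 of the 19 tested lower at an unadjusted p under 0.05 (4.27% of all named genes) and 0 higher. None of the 21 was under 16 on all arrays, and their part in the values of Tgfbi was not tested.

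**Figure D2:**
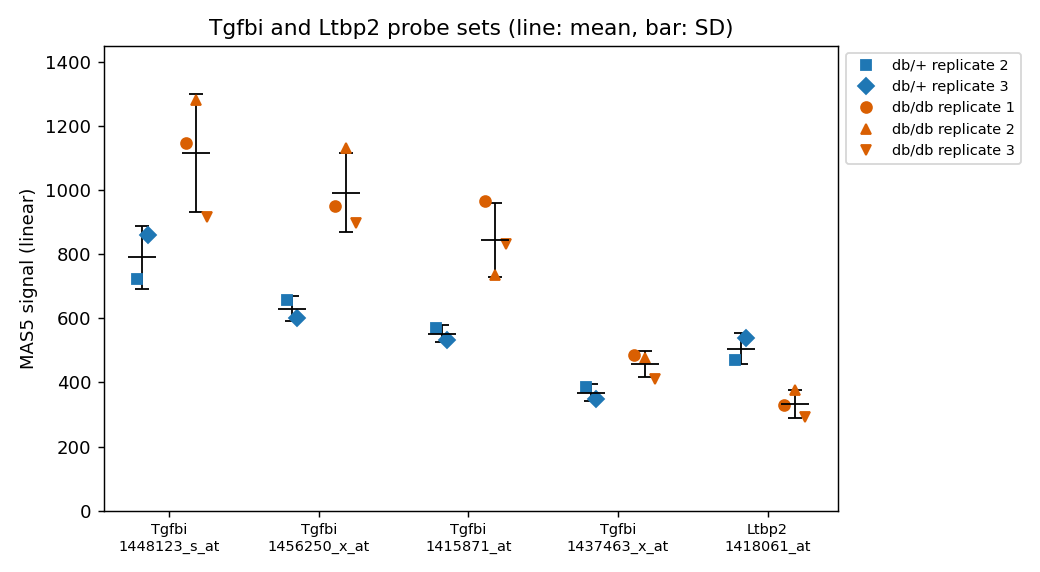
MAS5 signal (linear) of the 4 Tgfbi probe sets and the Ltbp2 probe set on each array, with a line for each group's mean and bars for the SD. The db/db arrays lie above both db/+ arrays at each Tgfbi probe set and below them at Ltbp2.

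The likeness of other genes to Tgfbi was measured as the root mean square difference of mean-centred log2 values over the 5 arrays from those of 1456250_x_at. The 3 nearest named genes were Atp2a2, the calcium pump of the sarcoplasmic reticulum, at 0.041, Smim7 at 0.063 and Tsc22d1, a transcriptional regulator found as a TGF-beta stimulated gene, at 0.066. Atp2a2 (1416551_at) had signals of 2290.9, 2578.3 and 2047.6 in db/db and 1607.5 and 1464.9 in db/+. The likeness is a description over 5 arrays.

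Latent TGF-beta binding proteins hold the ligand in the matrix, and Ltbp2 differs from the others of its family in that it does not bind latent TGF-beta itself but sits on fibrillin microfibrils. Ltbp2 (1418061_at) had signals of 328.3, 376.7 and 291.1 in db/db and of 471.1 and 538.7 in db/+. All 3 db/db arrays lay below both db/+ arrays. Its means were 332 ± 42.9 and 504.9 ± 47.8, a ratio of 0.658 and a log2 difference of −0.59 (SE 0.17; limma, adjusted p = 0.38). Ltbp1, which covalently carries the latent complex, showed no such separation: 503.8, 629.0 and 556.7 in db/db and 632.9 and 520.9 in db/+. Its log2 change was −0.03 (SE 0.17, 95% interval −0.43 to 0.36).

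Among the ligands, Tgfb3 was the one whose arrays did not overlap. It (1417455_at) had signals of 1085.5, 1006.8 and 910.7 in db/db and of 871.8 and 745.8 in db/+, with db/db replicate 3 close to db/+ replicate 2. The means were 1001 ± 87.5 and 809 ± 89.1, a log2 difference of 0.30 (SE 0.16; limma, adjusted p = 0.70).

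Tgfb1, the isoform most tied to vascular fibrosis, had 290.9, 205.9 and 222.0 in db/db and 211.6 and 215.3 in db/+. Replicate 1 of db/db stood above the other 4 arrays, and without it the log2 change of 0.14 (SE 0.18, 95% interval −0.28 to 0.56) was 0.0023. Platelets store Tgfb1 product, and the summed signal of 8 platelet markers lay between 736 and 890.5 in db/db and between 774 and 852 in db/+. Pf4, the brightest of them, had a log2 change of −0.16 with overlapping groups. Of the 5 tested, 3 dim ones were higher without overlap (13.6% of all named genes). The platelet part in Tgfb1 was not tested.

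Tgfb2 was read by 3 probe sets that did not move alike. At the brightest (1423250_a_at) signals ran from 130.4 to 183.8 in db/db and were 184.6 and 124.3 in db/+, a log2 difference of 0.02 (SE 0.21, 95% interval −0.46 to 0.51). At 1450923_at they were 87.9, 133.4 and 102.5 against 168.2 and 123.4, a log2 difference of −0.39 (SE 0.21; limma, adjusted p = 0.70) that ran from −0.59 to −0.19 with an array left out. At 1450922_a_at the log2 change was 0.0059 (SE 0.17). The groups overlapped at all 3 probe sets, and the sign at both _a_at probe sets turned under other scalings.

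The brightest probe sets of both signalling receptors varied little between arrays. Tgfbr2, the ligand-binding type II kinase, had 1114.6, 1043.5 and 992.7 in db/db and 1029.5 and 1137.1 in db/+ at its brightest probe set (1426397_at), where the highest array was 1.15 times the lowest. The groups overlapped, and the log2 change of −0.04 had a 95% interval from −0.40 to 0.31. The dimmer 1425444_a_at ran from 71.0 to 162.4 in db/db, with 144.7 and 100.7 in db/+, a log2 difference of −0.04 (SE 0.30).

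Tgfbr1, the type I kinase that phosphorylates Smads, had 646.1, 618.2 and 604.1 in db/db and 724.7 and 668.1 in db/+ at 1420895_at. The highest array was 1.20 times the lowest, and every db/db array was below both db/+ arrays. The log2 change was −0.16 (SE 0.15, limma adjusted p = 0.86). Its other probe sets were near the filter, with signals from 22.1 to 81.8 at 1420894_at and from 30.3 to 62.3 at 1420893_a_at, and log2 changes of −0.36 (−0.68 to −0.0023 with an array left out) and 0.16 (−0.094 to 0.42). Tgfbr3, betaglycan, had 127.3, 121.9 and 151.7 in db/db and 96.0 and 145.9 in db/+, a log2 difference of 0.15 (SE 0.20) that was −0.12 without db/+ replicate 2.

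Smad7 is induced by TGF-beta and blocks the type I receptor, so it is often read as a feedback gene. Its signals were 399.9, 310.1 and 331.2 in db/db and 514.9 and 352.3 in db/+. The groups overlapped because the db/+ arrays lay far apart, and the log2 change of −0.29 (SE 0.20, limma adjusted p = 0.79) was −0.56 without db/+ replicate 3 and −0.028 without db/+ replicate 2.

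**Figure D3:**
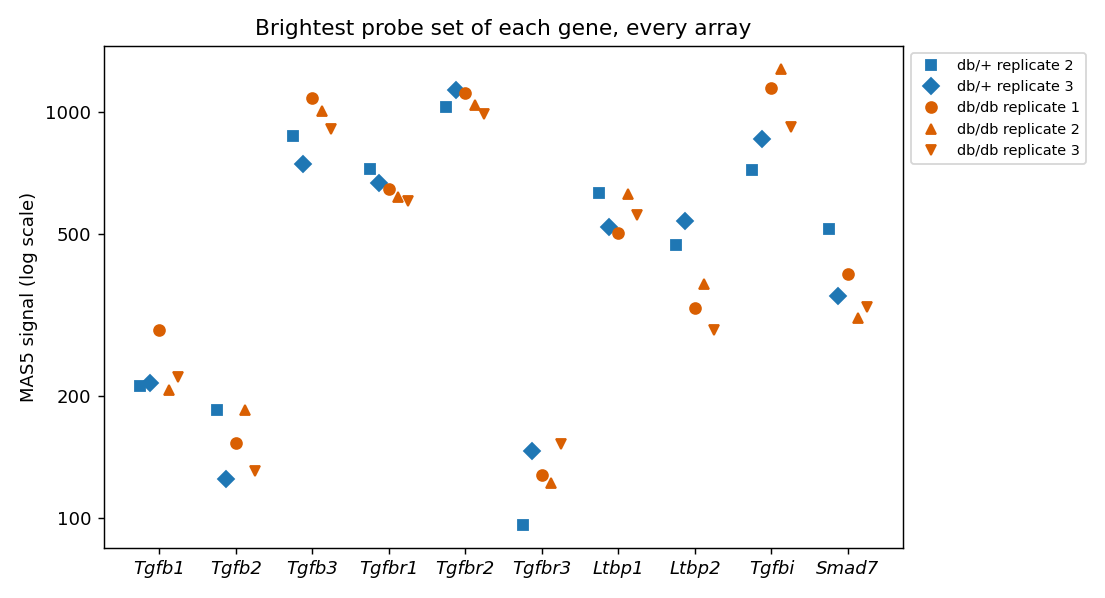
MAS5 signal (log scale) of the brightest probe set of each of the 10 genes on every array, to be read within a gene. Arrays of db/db lie above both db/+ arrays for Tgfb3 and Tgfbi, below them for Tgfbr1 and Ltbp2, and overlap for the other 6 genes.

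Further genes of the pathway were counted in 5 lists, by the brightest probe set of each gene. None of their genes passed at a limma adjusted p under 0.05 (0.121% of 8261 named genes did). Angptl4 passed under 6 of the 16 alternatives that kept this threshold, as given with its values, and it passed at a threshold of 0.1. At an unadjusted p under 0.05, where the background was 4.36% higher and 4.27% lower, the latent complex and activation list had 1 higher and 3 lower of 16 tested, and the list of extracellular inhibitors and co-receptors had 0 higher and 2 lower of 15. The Smads and intracellular regulators had 0 and 2 of 28, early target genes 2 and 2 of 27, and matrix and contractile targets 0 and 3 of 35. List medians of the log2 change ran from −0.060 for the early targets to 0.057 for the inhibitors and co-receptors, beside 0.021 over all named genes.

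**Figure D4:**
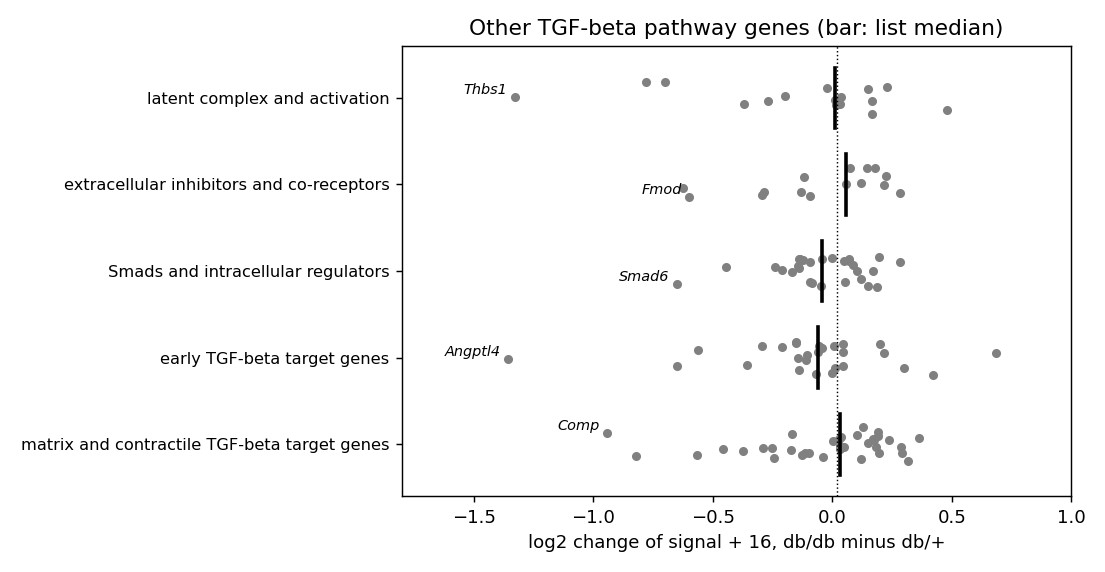
Log2 change (db/db minus db/+) of each gene of the 5 pathway lists, with a bar at the list median, the gene of smallest p named and a dotted line at the median of all named genes. The medians lie close to that line, and the lowest points are Thbs1 and Angptl4.

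Around the latent complex, the activator Thbs1 (thrombospondin 1) had 69.7, 54.2 and 91.9 in db/db and 245.7 and 164.9 in db/+, a log2 difference of −1.33 (SE 0.23; limma, adjusted p = 0.11). Another probe set of Thbs1 was at −1.08, and the groups did not overlap at either. Nrros, which anchors latent TGF-beta 1 on myeloid cells, had 65.0, 54.0 and 68.3 against 107.3 and 114.5, a log2 change of −0.70 (adjusted p = 0.24). The macrophage marker sums given above were lower in the same arrays, and their part in Nrros was not tested. Ltbp4, a binding protein needed for elastic fibre assembly, had 2008.7, 1770.7 and 1614.6 against 1344.8 and 1218.5, a log2 difference of 0.48 (SE 0.17; limma, adjusted p = 0.47), opposite in sign to that of Ltbp2. The log2 change of Lrg1, a secreted modulator of endothelial TGF-beta signalling, was −0.78 (adjusted p = 0.57; −1.07 to −0.49 with an array left out), and its groups overlapped. Endothelial marker sums, given beside Smad6, were lower in the same arrays, and their part in Lrg1 was not tested.

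Of the extracellular inhibitors, the proteoglycans Fmod (fibromodulin) and Aspn (asporin), which bind TGF-beta, had log2 changes of −0.60 and −0.62 (adjusted p = 0.46 and 0.53). Fmod had 6 probe sets tested, of which 5 were lower without overlap and 1 had a log2 change of 0.18. The follistatin-like antagonist gene Fstl3 had −0.30 (adjusted p = 0.69). Fkbp1a, which keeps the type I receptor silent, had 0.29 (adjusted p = 0.75; 0.090 to 0.48 with an array left out), and 2 of its other 3 probe sets had a negative sign.

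Among Smads, Smad6, which like Smad7 is inhibitory, had 407.9, 394.4 and 556.0 in db/db and 818.2 and 617.9 in db/+, a log2 difference of −0.65 (SE 0.21; limma, adjusted p = 0.43), with no overlap. It is also high in endothelium, whose 20 markers had summed signals from 3045 to 3672 in db/db and from 4222 to 4486 in db/+. At an unadjusted p under 0.05, 8 of the 19 tested were lower (4.27% of all named genes) and 0 higher. A negative log2 change was seen in 16 of the 19 (46.1% of all named genes). Cdh5, Kdr and Cldn5 were at −0.06, 0.04 and −0.09 with overlapping groups. The endothelial part in Smad6 was not tested. Smad2 and Smad4 had log2 changes of 0.00044 and −0.04. Tab2, an adaptor of the TAK1 kinase branch, had −0.44 (adjusted p = 0.57), the focal adhesion cofactor Tgfb1i1 had 0.28 (adjusted p = 0.73; 0.13 to 0.44 with an array left out), and the ubiquitin ligase gene Wwp1 had −0.24 at its brightest probe set and −0.90 at another (1427097_at, adjusted p = 0.086).

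Target genes did not share a sign. In the early list Angptl4, a lipase inhibitor that also answers to PPARs and glucocorticoids, had 246.1, 329.4 and 359.3 in db/db against 823.3 and 805.7 in db/+, a log2 difference of −1.36 (SE 0.19; limma, adjusted p = 0.056). It passed with a pseudocount of 64 (limma adjusted p = 0.020), the 60th percentile filter (0.034), median centring (0.0499), trend and robust (0.022), array weights (0.031) and the mean of probe sets (0.029), and without db/+ replicate 3 its adjusted p was 0.54. Fat cells also express Angptl4. Of 13 white adipocyte markers in the same comparison, 11 had a negative log2 change (46.1% of all named genes) and 6 were lower without overlap (12.0%). Retn was higher without overlap, at 0.49 (limma adjusted p = 0.60). The leptin gene Lep passed at −2.96 (limma adjusted p = 0.0064). The call of Lep was lost with a pseudocount of 1 (limma adjusted p = 0.066), with no filter (0.11) and without db/+ replicate 2 (0.11) or 3 (0.14). Their summed signals were 15933, 26040 and 20464 in db/db and 23214 and 23605 in db/+, which overlap, and their part in Angptl4 was not tested. Tsc22d1 had 0.42 at its brightest probe set and between 0.55 and 0.60 at 3 others, all without overlap, and Bhlhe40, a clock-linked repressor, had 0.69 (adjusted p = 0.61) with overlapping groups (0.36 to 1.01 with an array left out). The connective tissue growth factor gene Ccn2, a direct Smad target, had 4152.4, 3551.5 and 3784.3 in db/db and 4095.8 and 3915.2 in db/+, a log2 difference of −0.07 (SE 0.16).

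In the matrix list the cartilage oligomeric matrix protein gene Comp had 143.4, 104.5 and 141.3 in db/db and 260.6 and 262.9 in db/+, a log2 difference of −0.94 (SE 0.18; limma, adjusted p = 0.14). Fbln2, a fibulin of elastic fibres, had −0.82 (adjusted p = 0.25), the proteoglycan gene Vcan −0.46 (adjusted p = 0.48) and the fibronectin gene Fn1 −0.37 (adjusted p = 0.63). Col1a1, Postn and Eln, which encode collagen, periostin and elastin, had log2 changes of 0.05, 0.03 and 0.18, with overlapping groups. Of the 35 genes tested in the list, 21 had a positive and 14 a negative log2 change, where 46.1% of all named genes were negative. Groups did not overlap at 4 higher and 6 lower genes, against 13.6% and 12.0% of all named genes. The 4 higher were Col4a1, Smtn, Tpm1 and Myl9, at 0.36, 0.32, 0.29 and 0.29 (limma adjusted p from 0.64 to 0.73). The smooth muscle marker Myh11, the heavy chain of contractile myosin, read 3916.4, 3808.3 and 3589.9 in db/db and 3426.4 and 3366.5 in db/+, a log2 difference of 0.15 (limma, adjusted p = 0.87) with no overlap. Of 15 smooth muscle markers tested, 13 had a positive and 2 a negative log2 change, where 46.1% of all named genes were negative. Without overlap, 6 were higher and 1 lower, against 13.6% and 12.0% of all named genes. The summed signal of 16 smooth muscle markers lay between 34904 and 41715 in db/db and between 31429 and 34998 in db/+.

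**Figure D5:**
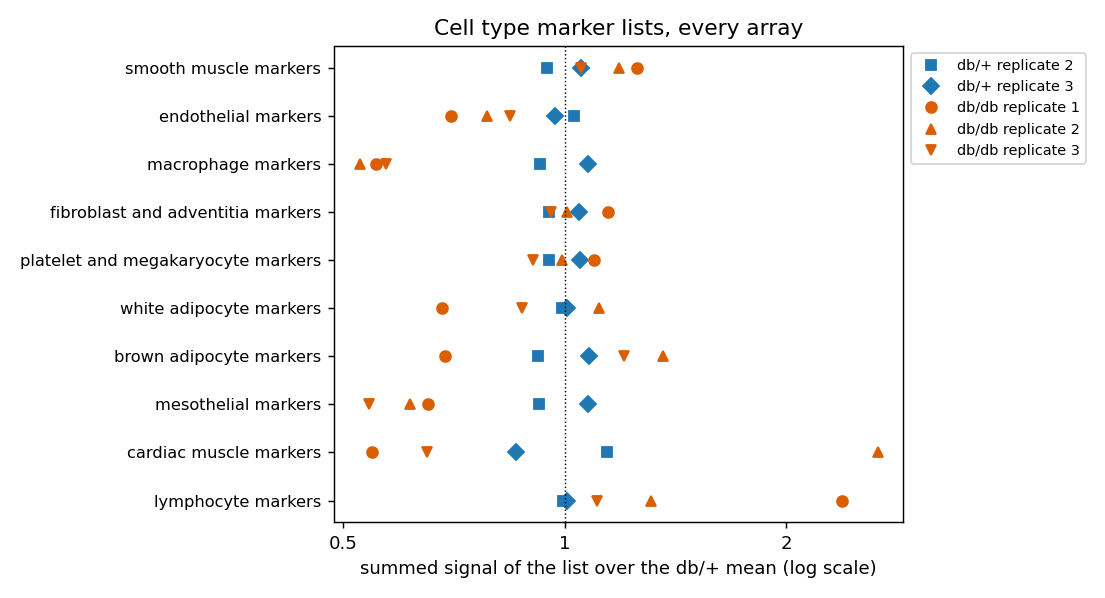
Summed signal of each cell type marker list on every array, divided by the mean of the db/+ arrays (log scale). Macrophage, endothelial and mesothelial sums are lower on all 3 db/db arrays than on both db/+ arrays, and lymphocyte sums are higher on all 3. A sum can rest on few genes, such as Prg4 and Slpi in the mesothelial list and Zap70 in the lymphocyte list.

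Over the series, correlations of log2 signals between pairs of arrays ran from 0.951 to 0.976, those of db/db replicate 1 from 0.951 to 0.964. The 3′ over 5′ actin signal ratio, a guide to RNA integrity, was 1.14 to 1.34. Fat markers were present despite stripping. Adipoq, the adiponectin gene, had 1393.8, 2062.2 and 2010.0 in db/db, each below the 2790.7 and 2121.6 of db/+, and Ucp1 ran from 2136.2 to 4334.5 in db/db with 2503.4 and 2665.3 in db/+. The mesothelial sums were 704 to 848 in db/db and 1201 to 1403 in db/+, with Prg4 and Slpi the widest apart (log2 changes of −1.38 and −1.31). Of the 6 mesothelial markers tested, 4 were lower without overlap (12.0% of all named genes). Krt18 and Krt8 had log2 changes of 0.11 and 0.0040 with overlapping groups. Cardiac sums were 1015, 4955 and 1207 in db/db replicates 1, 2 and 3, and 2120.5 and 1599 in db/+. The array of db/db replicate 2 also had the highest signals of Atp2a2 and of Tgfbi at 1456250_x_at. The cardiac part in these was not tested. Lymphocyte sums of 12 markers were 1192, 655 and 553 in db/db and 497 and 503 in db/+. Zap70 was the brightest marker tested, with 440.2, 235.3 and 235.9 in db/db and 170.0 and 155.3 in db/+. Jchain and Cd79a were lower in db/db replicate 3 (29.7 and 42.5) than in both db/+ arrays. Only 6 of the 12 passed the filter. Cd79b, Cd37 and Jchain had db/+ means below it (37.6, 39.1 and 37.25), so the signs of the markers were not counted. The highest lymphocyte sum was that of db/db replicate 1, also the array with the highest Tgfb1. The lymphocyte part in Tgfb1 was not tested.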

How the data were processed

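The deposited file holds 1 linear MAS5 intensity for each probe set and array, as produced by the authors; MAS5 is named without a version in the submitters' processing notes, and the genome build is not given in the sources used here. The 2% trimmed mean was about 150.05 on every array, so no further normalization was applied. Of 22690 probe sets, 64 controls were left out; the platform annotation gave 1 symbol for 20380, several for 691 and none for 1555, and those without exactly 1 symbol were tested but not named. Intensities were transformed to log2(signal + 16), and 13574 probe sets with a mean signal above the 40th percentile were tested with limma 3.58.1 under R 4.3.3 (two-sided, genotype alone in the model, lmFit then eBayes, 3 residual and 5.39 prior degrees of freedom), with Benjamini-Hochberg adjustment over all of them. The number of arrays limits the precision: in 10 simulated runs with 200 of 13574 probe sets changed, the test found 98.2% of 4-fold and 52.5% of 2-fold changes, and 4.59% of its calls were false. Noise in these runs was independent and normal, with variances drawn from limma's fitted prior. Differences of cell mix between pools were not simulated, nor were changes under 2-fold, such as those of the members.

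The members and lists were chosen with earlier results of these data known. The rule for naming genes took the 10 members and the 3 genes most like the member of smallest p. It also took up to 4 genes of each pathway list and marker list with the smallest unadjusted p. Those of the marker lists were named only in part: Lep, Retn, Ucp1, Prg4, Slpi, Zap70, Cd79b, Cd37 and Jchain. Smad2, Smad4, Ccn2, Col1a1, Postn, Eln, Col4a1, Smtn, Tpm1, Myl9, Myh11, Adipoq and the other single genes named from the marker lists lie outside this rule. They were named after their values were seen. Marker lists are given as summed signals of each gene's brightest probe set. Replicate numbers 2 and 3 are shared by the genotypes. Deviations from the group means correlated at 0.11 and 0.00051 for these numbers, so they were not taken as pairs. Alternatives were pseudocounts of 1 and 64, no filter or the 60th percentile, array weights, trended robust eBayes, centring on array medians, quantile normalization, the replicate block, each array left out, a threshold of 0.1, averaging all probe sets of each gene and, chosen after seeing the data, a filter on the mean log2 value.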

Additional observations from a re-analysis of the deposited data

How the results depend on the processing

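No member probe set passed at an adjusted p under 0.05 under any of the alternatives, a threshold of 0.1 included. Over 278 values of member probe sets under 16 alternatives, 18 changed sign, all from main log2 changes between −0.04 and 0.16. All 4 Tgfbi probe sets stayed positive and Ltbp2 negative in each (Tgfbi from 0.23 to 0.70, Ltbp2 from −0.68 to −0.49). With each array left out in turn, the log2 change ran from −0.24 to 0.28 for Tgfb2 (−0.081 to 0.093 at 1450922_a_at), from −0.12 to 0.41 for Tgfbr3, from −0.094 to 0.42 at 1420893_a_at of Tgfbr1, from −0.11 to 0.027 for Tgfbr2 (−0.28 to 0.26 at 1425444_a_at) and from −0.17 to 0.10 for Ltbp1. Tgfb2 was −0.016 with median centring, −0.023 with array weights and −0.12 with the mean of its probe sets; 1450922_a_at was −0.0091 with quantile normalization and −0.031 with median centring; 1425444_a_at was 0.040 with array weights. With the replicate block Ltbp1 was 0.042, 0 members passed, 2 Tgfbi probe sets kept an unadjusted p under 0.05, and the list of latent complex genes had a median of −0.050.

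The number of member probe sets lower at an unadjusted p under 0.05 was 0 without db/+ replicate 3 and at most 2 without another array (2 without db/db replicate 2 or 3), and the median over members lay between −0.087 and 0.14. Over all probe sets 13 passed, 1 to 13 with an array left out (1 without db/+ replicate 2 or 3), 3 and 37 with pseudocounts of 1 and 64, 1 with no filter, 35 with the 60th percentile, 21 with median centring, 41 with trend and robust, 48 with array weights, 22 with the replicate block and 49 at a threshold of 0.1. The share lower among probe sets with an unadjusted p under 0.05 was 51.4%, and 63.5% with median centring. The median of the Smad list (−0.044) was −0.092 at the 60th percentile, −0.081 with median centring, −0.014 with the block and −0.090 with the mean of probe sets; that of the inhibitors was −0.016 with quantile normalization and 0.019 with median centring. Leaving out arrays gave −0.051 to −0.0049 and 0.0011 to 0.065 for these lists and −0.069 to 0.044 for the latent complex list. The causes were not tested. Signals not far above 16 limit what can be said of the dim Tgfbr1 probe sets (down to 22.1 at 1420894_at and 30.3 at 1420893_a_at). The Tgfbr2 probe set with signals near 16 or below (1422019_at) was dropped by the filter.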
